A study of Mus musculus with 6 samples.

Results

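G-protein-coupled receptors were examined in Thy1-sorted mouse retinal cells 3 days after optic nerve crush, in eyes that carried a virus for Sox11 or a control virus. The receptors comprised those for serotonin, dopamine, noradrenaline and adrenaline, acetylcholine, adenosine, somatostatin, neuropeptide Y and opioids, together with orphan and adhesion receptors. They were chosen by gene name alone: a name beginning with Gpr and a digit, Gprc5, Adgr, Htr (other than the ion channel type), Drd, Adra, Adrb, Adora, Chrm, Sstr, Npy with its receptor suffix, or the classical opioid receptor names. The rule found 85 of the 15450 named genes of the deposited table. Of these, 83 are receptors or receptor-like proteins, and 2 are the receptor kinases Adrbk1 and Adrbk2, whose older names begin with the same letters. There were 22 receptors for the named neuromodulators, 16 adhesion receptors and 45 orphan and other Gpr or Gprc5 proteins. Some of these proteins sit in membranes inside the cell.

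Mice of 3 to 4 weeks at the start received AAV-Sox11 or AAV-Control in the eye, and 2 weeks were allowed for expression. AAV-Sox11 is an adeno-associated virus that carries the transcription factor Sox11, and AAV-Control carries alkaline phosphatase (genotype label AAV-PLAP). All eyes had the optic nerve crushed 3 days before the tissue was taken, so no group without crush or without virus enters the comparison. Each library was a pool of 3 retinas from 3 animals, sorted for the surface protein Thy1 and for live cells, and each group had 3 libraries, A, B and C. The strain and the promoter of the virus were not given in the sources used here. Values listed below are always in the order A, B and C, in the authors' normalized units, and errors of means are SDs over 3 libraries (n = 3 per group).

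G-protein-coupled receptors turn an outside ligand into a change of second messengers. Receptors coupled to Gs raise cyclic AMP, those coupled to Gi lower it and open potassium channels, and those coupled to Gq release calcium through phospholipase C. Receptor kinases and arrestins then end the signal, and RGS proteins speed the switching off of the G protein. In the retina, dopamine from amacrine cells sets the circuit for bright light, acetylcholine comes from starburst amacrine cells, and adenosine, somatostatin, neuropeptide Y and opioid peptides act as slower modulators. Adhesion receptors carry long outer domains that bind matrix or partner cells and are cut near the membrane, and orphan receptors are those without an agreed ligand.

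The library totals lay between 10747985 and 11546892 in deposited values, which stand for depth only approximately. Sox11 itself had 179, 234 and 284 in the AAV-Sox11 libraries, against 131, 111 and 100.3 in the AAV-Control libraries. All 3 AAV-Sox11 libraries lay above all 3 controls, with a log2 fold change of 1.0 and an adjusted p of 0.0504 in limma, just over the threshold of 0.05. This is a check of the label at the level of the whole gene only. Reads from the virus and from the animal's own Sox11 are not separated in these values. Thy1, the protein used for the sort, had 2654, 3272 and 2798 with AAV-Sox11 and 2069.9, 3079 and 1759 with AAV-Control. The groups overlapped for Thy1. The sorted pools also held transcripts of rods, bipolar and amacrine cells, Muller glia and microglia. A receptor's value therefore cannot be placed in ganglion cells from these data. Fewer cells of a type in a pool and less RNA per cell cannot be told apart in bulk libraries.

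The range of levels was wide. Mean values over the 6 libraries ran from 20.4 to 4469.3, and all 85 members averaged at least 20. Between genes, levels are compared per kilobase of annotated transcript. Each transcript's value was divided by its own length, and the results were summed per gene. Short transcripts therefore weigh heavily. Genes with several transcripts, such as Adgrv1, Gpr137c and Gpr107, can rank too high against genes with a single transcript, such as Drd1. On that scale the dopamine receptor gene Drd1 stood first at 662, and the orphan receptor gene Gpr158 was next at 633. Gpr137c had 522 per kilobase, Gpr180 521, Gpr107 505 and the latrophilin gene Adgrl1 493. Adgrv1 ranked 12 at 334 per kilobase. Of the receptors for neuromodulators, Chrm2 followed Drd1 at 233 per kilobase, then Htr2b at 107, Chrm3 at 94.3, Drd2 at 92.2 and Htr2a at 73.6. At the low end Adra2a had 4.42 per kilobase, Sstr3 5.56 and Adgrd1 3.95. These ranks are a description and carry no test.

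Of the 85 members, 1 rose and 3 fell with AAV-Sox11 at an adjusted p under 0.05 (limma-trend on log2 of the value plus 1, Benjamini-Hochberg over all 15450 genes). Across all genes 0.796% were called higher and 1.52% lower, so the members' counts, 1 and 3 of 85, lay near or somewhat above that background. Fold changes are those of this scale, so they fall short of the ratio of the means at low values. The gene that rose was Gpr157. Those that fell were Gpr160, Adgrv1 and Htr2a. A further 18 members had an unadjusted p under 0.05, which makes 22 of 85, against 24.3% of all genes. In 10 members all AAV-Sox11 libraries lay above all controls and in 15 all lay below, where 16.2% and 14.4% of all genes did so. The median log2 fold change was -0.08 over the members and 0.03 over all genes. By kind it was -0.13 for the 22 neuromodulator receptors, -0.15 for the 16 adhesion receptors and 0.03 for the 45 orphan and other proteins. Blocking on the replicate letter, which marks the day of preparation, gave 3 members higher and 4 lower, where 2.09% and 2.68% of all genes were called.

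**Figure D1:**
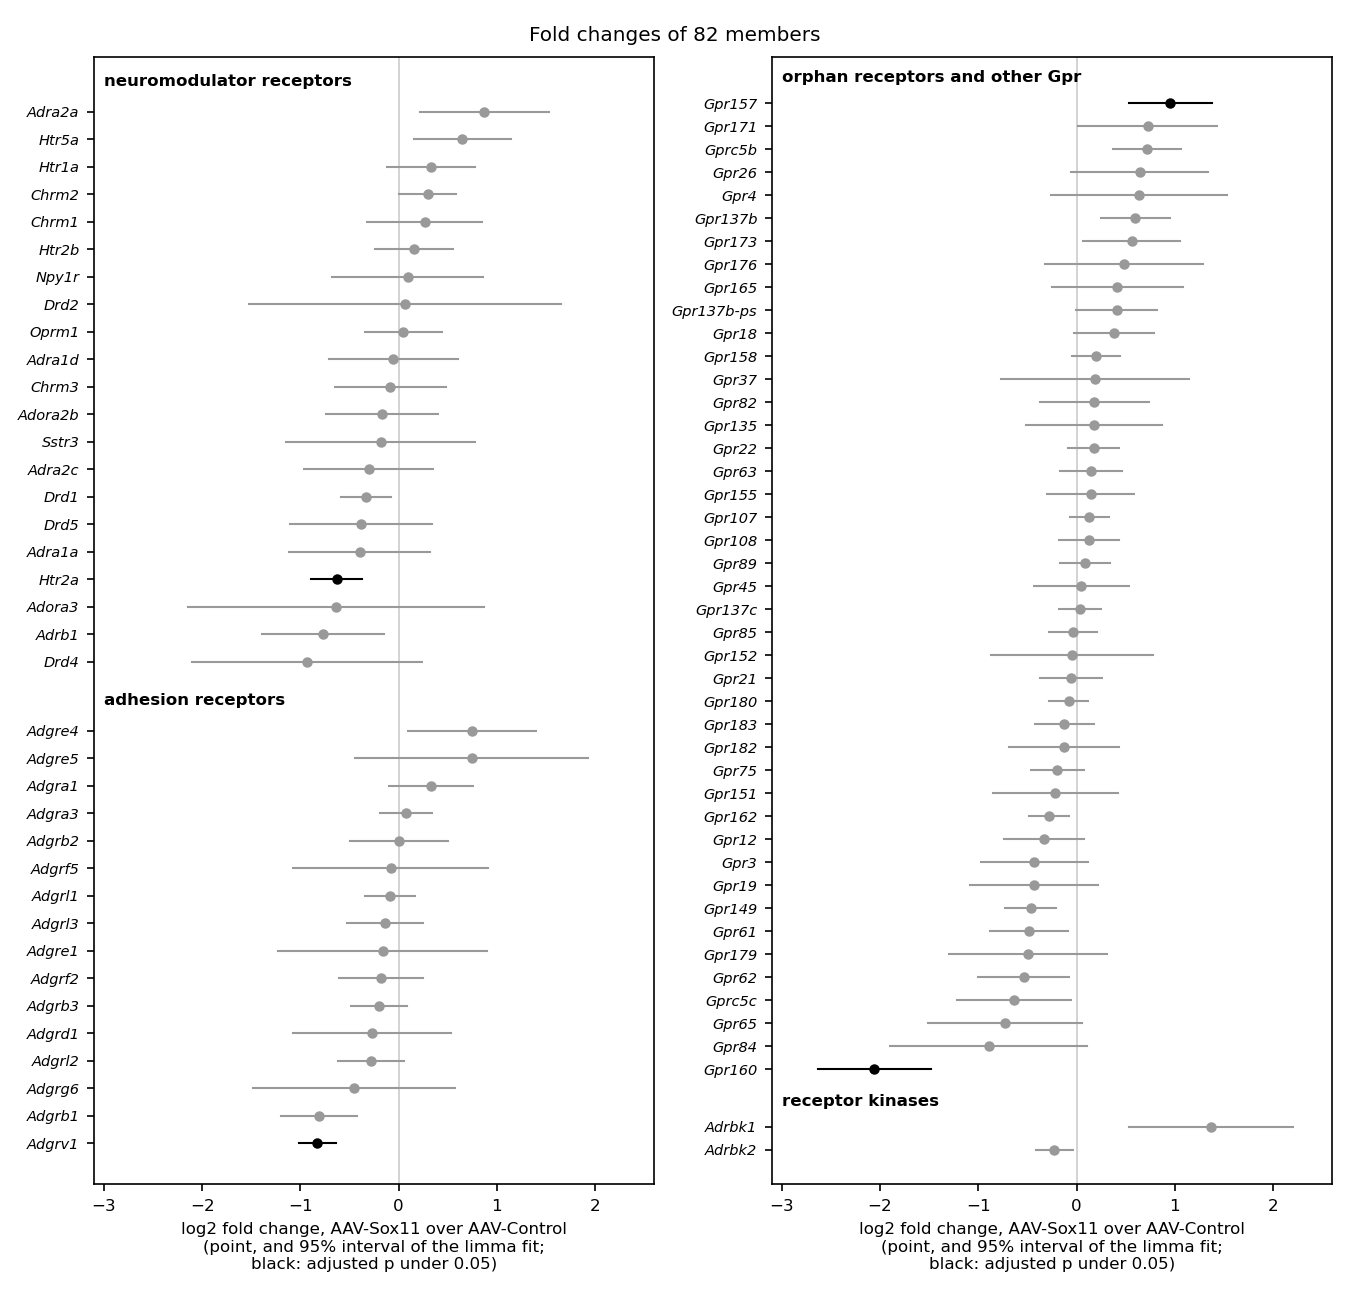
Log2 fold change, AAV-Sox11 over AAV-Control, of 82 of the 85 members, with the 95% interval of the limma fit, grouped by kind and ordered by fold change. The 4 members with an adjusted p under 0.05 are in black, Gpr157 to the right of 0 and Htr2a, Adgrv1 and Gpr160 to the left, and most intervals of the other 78 shown include 0.

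Gpr157 is an orphan receptor that in mouse radial glia sits on the primary cilium and couples to Gq. It had 574, 532 and 437 in the AAV-Sox11 libraries, against 205, 311 and 287 in the AAV-Control libraries. All 3 AAV-Sox11 libraries lay above all controls, with no overlap. The means were 515 ± 70.1 with AAV-Sox11 and 267 ± 55.5 with AAV-Control, 1.94-fold higher with AAV-Sox11 (log2 fold change 0.95 ± 0.18, SE, adjusted p = 0.0465). The call lay close to the threshold and held in 7 of 21 alternative settings. It was lost without AAV-Control A (adjusted p = 0.0663) or AAV-Control C (adjusted p = 0.0526). With the block the adjusted p was 0.0468.

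Gpr160 is an orphan receptor reported in rodents to respond to the appetite peptide CART. It had 9.39, 10.4 and 14.1 in the AAV-Sox11 libraries, against 42.7, 50.01 and 56.9 in the AAV-Control libraries. Every control lay far above every AAV-Sox11 library. The means were 11.3 ± 2.47 with AAV-Sox11 and 49.9 ± 7.11 with AAV-Control, 4.17-fold lower with AAV-Sox11 (log2 fold change -2.06 ± 0.24, adjusted p = 0.0158). The only Gpr160 transcript in the table, ENSMUST00000130294, is annotated as a retained-intron transcript of 2 exons and 2523 bases (mm10 chr3:30855950-30879461, plus strand). No coding Gpr160 transcript was analysed here, so the value does not stand for the receptor's coding mRNA.

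Htr2a, the Gq-coupled serotonin receptor that hallucinogens act on, had 291, 322 and 360.0 in the AAV-Sox11 libraries, against 532, 494 and 478 in the AAV-Control libraries. The highest AAV-Sox11 library stood below the lowest control. It averaged 324 ± 34.6 with AAV-Sox11 and 501 ± 27.9 with AAV-Control, 1.55-fold lower with AAV-Sox11 (log2 fold change -0.63 ± 0.11, adjusted p = 0.0394). Without AAV-Control A the adjusted p was 0.0784. Its single transcript in the table is coding (mm10 chr14:74640840-74709494, plus strand, 3 exons).

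Adgrv1 is the very large adhesion receptor whose human gene is mutated in a form of Usher syndrome, and which forms fibrous links at the photoreceptor cilium and between hair cell stereocilia. It had 1511, 1519 and 1463 in the AAV-Sox11 libraries, against 2819, 2723 and 2437 in the AAV-Control libraries. The AAV-Sox11 libraries were close to each other and all lay far below the controls. It averaged 1498 ± 30.3 with AAV-Sox11 and 2659.9 ± 199 with AAV-Control, 1.77-fold lower with AAV-Sox11 (log2 fold change -0.83 ± 0.08, adjusted p = 0.0132). It was called in 13 of 21 alternative settings, Gpr160 in 11 of 20 and Htr2a in 11 of 21. When any 1 of the AAV-Sox11 libraries was left out, none of the 4 called members passed, with adjusted p between 0.063 and 0.221 and fold changes of the same sign. None of the 4 shared exon bases with another annotated gene.

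A measure of the animals' sex differed between the groups. It was higher in each AAV-Sox11 pool than in any AAV-Control pool, in pool A by a narrow margin. The measure was the log2 value of Xist minus the mean of the log2 values of 4 Y-linked genes. It was 6.86, 8.11 and 8.45 in the AAV-Sox11 pools, against 6.82, 6.79 and 5.26 in the AAV-Control pools. With that measure as a covariate the log2 fold changes were 1.20 for Gpr157, -2.10 for Gpr160, -0.91 for Adgrv1 and -0.81 for Htr2a. Their adjusted p-values were then 0.148, 0.128, 0.111 and 0.128, and no gene of the table passed.

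The start regions of the 4 called genes are shown because these are the members whose totals changed. RefSeq promoters on GRCm38.p6, from 250 bases before to 50 after the start, were matched for 60 of the 85 members. Capitals mark GGGCGG, the GC box, or its reverse complement CCGCCC, and matches that overlap run together.
Gpr157 (chr4:150087253-150087552, plus strand) and Gpr160 (chr3:30855700-30855999, plus strand) follow.
Gpr157: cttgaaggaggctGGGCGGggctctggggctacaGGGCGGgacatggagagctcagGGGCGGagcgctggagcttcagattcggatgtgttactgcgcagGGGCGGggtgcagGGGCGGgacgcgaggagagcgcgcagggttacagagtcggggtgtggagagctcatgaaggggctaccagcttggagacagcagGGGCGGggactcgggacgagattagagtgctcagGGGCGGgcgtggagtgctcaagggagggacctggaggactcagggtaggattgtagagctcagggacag
Gpr160: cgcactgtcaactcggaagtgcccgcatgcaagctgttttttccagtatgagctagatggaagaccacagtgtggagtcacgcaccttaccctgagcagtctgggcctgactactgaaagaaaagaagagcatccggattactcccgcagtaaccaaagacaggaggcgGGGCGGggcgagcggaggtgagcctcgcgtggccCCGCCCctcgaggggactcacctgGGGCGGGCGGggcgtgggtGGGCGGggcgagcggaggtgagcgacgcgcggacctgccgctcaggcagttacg
Adgrv1 (chr13:81633095-81633394, minus strand) and Htr2a (chr14:74640624-74640923, plus strand) follow.
Adgrv1: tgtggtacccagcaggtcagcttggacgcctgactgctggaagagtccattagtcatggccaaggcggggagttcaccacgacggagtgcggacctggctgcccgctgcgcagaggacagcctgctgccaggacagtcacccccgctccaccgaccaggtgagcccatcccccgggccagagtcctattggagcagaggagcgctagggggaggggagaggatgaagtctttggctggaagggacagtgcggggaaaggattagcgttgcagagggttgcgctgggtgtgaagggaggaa
Htr2a: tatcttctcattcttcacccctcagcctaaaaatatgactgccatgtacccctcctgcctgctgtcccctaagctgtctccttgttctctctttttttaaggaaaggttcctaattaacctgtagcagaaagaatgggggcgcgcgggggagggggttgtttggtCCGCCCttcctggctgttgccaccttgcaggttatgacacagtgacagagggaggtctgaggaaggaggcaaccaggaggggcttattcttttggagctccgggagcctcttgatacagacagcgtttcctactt
The Gpr157 window carried the GC box many times, Gpr160 several times, Htr2a in a single place on the other strand, and Adgrv1 not at all. GGGCGG was present in 35.7% of all 32851 promoters, and in 51.4% of the 74 promoters of members, which belong to 60 genes. The members' promoters had a median of 14 CG letter pairs, against 7 over all promoters. No share given here was adjusted for base composition. The letters AACAAT, a core that SOX proteins bind, were in 6.76% of the members' promoters (5 of 74) and 10.7% of all, read on both strands. AACAAAG was in 1.35% (1 of 74) and 5.85%, and TATAAA in 9.46% and 13.6%. None of the 4 windows shown held any of these last 3 runs of letters. A match is a run of letters and not a site of binding, and no match says nothing about the factor.

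The table held 11 Adgrv1 transcripts, which overlap along the gene and may share reads, so they are not independent measurements. In 9 of the 11 all AAV-Sox11 libraries lay below all controls, where 15.2% of all transcripts did so. In a fit over 26334 named transcripts, 5 of the 11 passed an adjusted p of 0.05, against 1.98% of all transcripts. The full-length coding transcript ENSMUST00000095585, with 90 exons and 19338 bases, had a log2 fold change of -0.76 (adjusted p = 0.0198). The shorter transcripts that passed had changes between -1.02 and -1.46. Of these, ENSMUST00000109565 is coding, and ENSMUST00000129725, ENSMUST00000132045 and ENSMUST00000146141 are retained-intron transcripts. The shorter transcripts that begin at the start of the gene, ENSMUST00000126444, ENSMUST00000128585 and ENSMUST00000146749, did not pass. The log2 fold change was -1.34 for ENSMUST00000128585 (adjusted p = 0.0628) and -0.94 for ENSMUST00000146749 (adjusted p = 0.202). In ENSMUST00000126444 and ENSMUST00000128120, with log2 fold changes of -0.06 and -0.32, the groups overlapped.

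**Figure D2:**
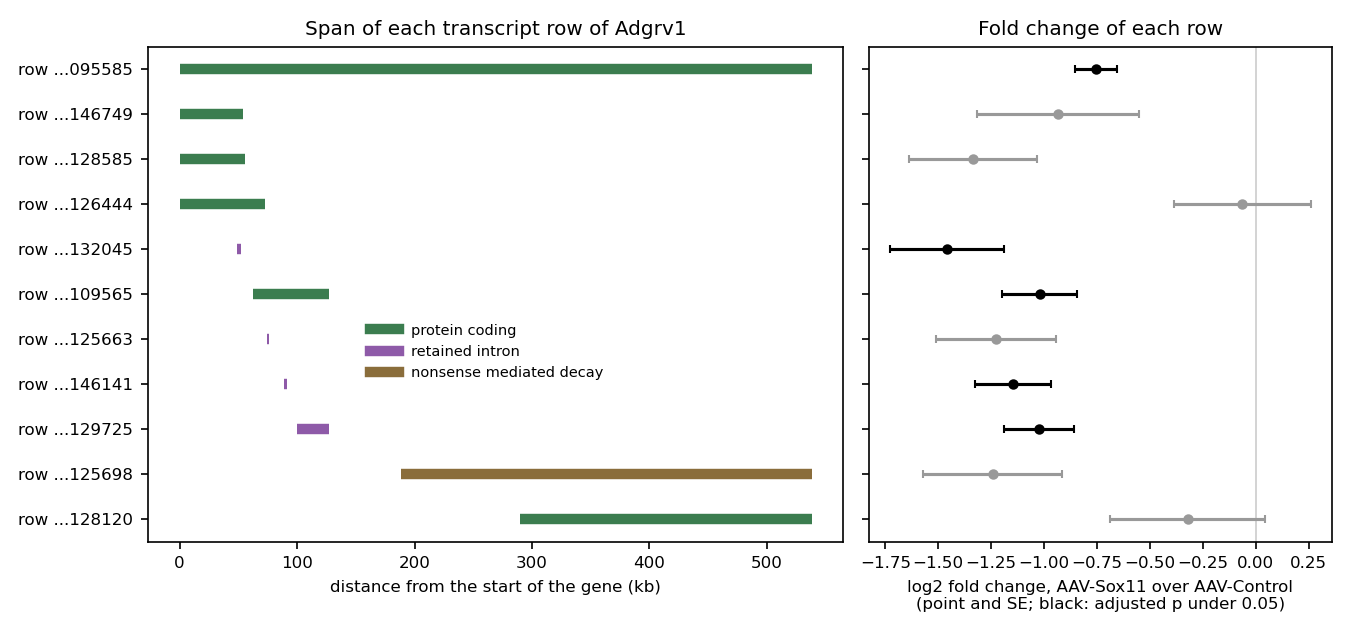
The 11 Adgrv1 transcripts of the deposited table, labelled by the last digits of their Ensembl names, with their span as distance from the start of the gene in kilobases (left) and their log2 fold change, AAV-Sox11 over AAV-Control, with SE (right). The 5 with an adjusted p under 0.05 are black, and the coding transcript that spans the whole gene stands at -0.76.

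The block on replicate letter added 3 members to the 4 called. Adgrb1, an adhesion receptor that binds phosphatidylserine on dying cells and also acts at synapses, had 590.1, 533 and 649 in the AAV-Sox11 libraries, against 1083, 813 and 1255 in the AAV-Control libraries. All AAV-Sox11 libraries lay below all controls. Its log2 fold change was -0.81 ± 0.17, with an adjusted p of 0.0531 without the block and 0.0285 with it. Without AAV-Control B the adjusted p of Adgrb1 was 0.0229.

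Gprc5b, a class C orphan of the retinoic acid-induced family, had 994, 1149.6 and 1019.6 in the AAV-Sox11 libraries, against 696, 734 and 512 in the AAV-Control libraries. All AAV-Sox11 libraries lay above all controls. The log2 fold change was 0.72 ± 0.15, with an adjusted p of 0.0536 without and 0.0345 with the block. Without AAV-Control B the adjusted p of Gprc5b was 0.0417, and without AAV-Control C it was 0.0438. Its exons share 606 bases with Iqck on the other strand, and without a stated strand setting this value is uncertain to that extent. Iqck had 18.8, 17.7 and 29.2 with AAV-Sox11 and 10.7, 8.8 and 18.3 with AAV-Control.

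Gpr137b, a lysosomal membrane protein that regulates growth signalling there, had 413, 459 and 561 in the AAV-Sox11 libraries, against 277, 308 and 359 in the AAV-Control libraries. The groups did not overlap, AAV-Sox11 being higher. The log2 fold change was 0.60 ± 0.15, with an adjusted p of 0.0734 without and 0.0345 with the block. Its near-identical copy Gpr137b-ps had 291, 254 and 232 with AAV-Sox11 and 154, 204 and 234 with AAV-Control, with overlap and a log2 fold change of 0.41 ± 0.18 (adjusted p = 0.211). How the authors' counting divided reads between the copies was not given in the sources used here, so both are uncertain.

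**Figure D3:**
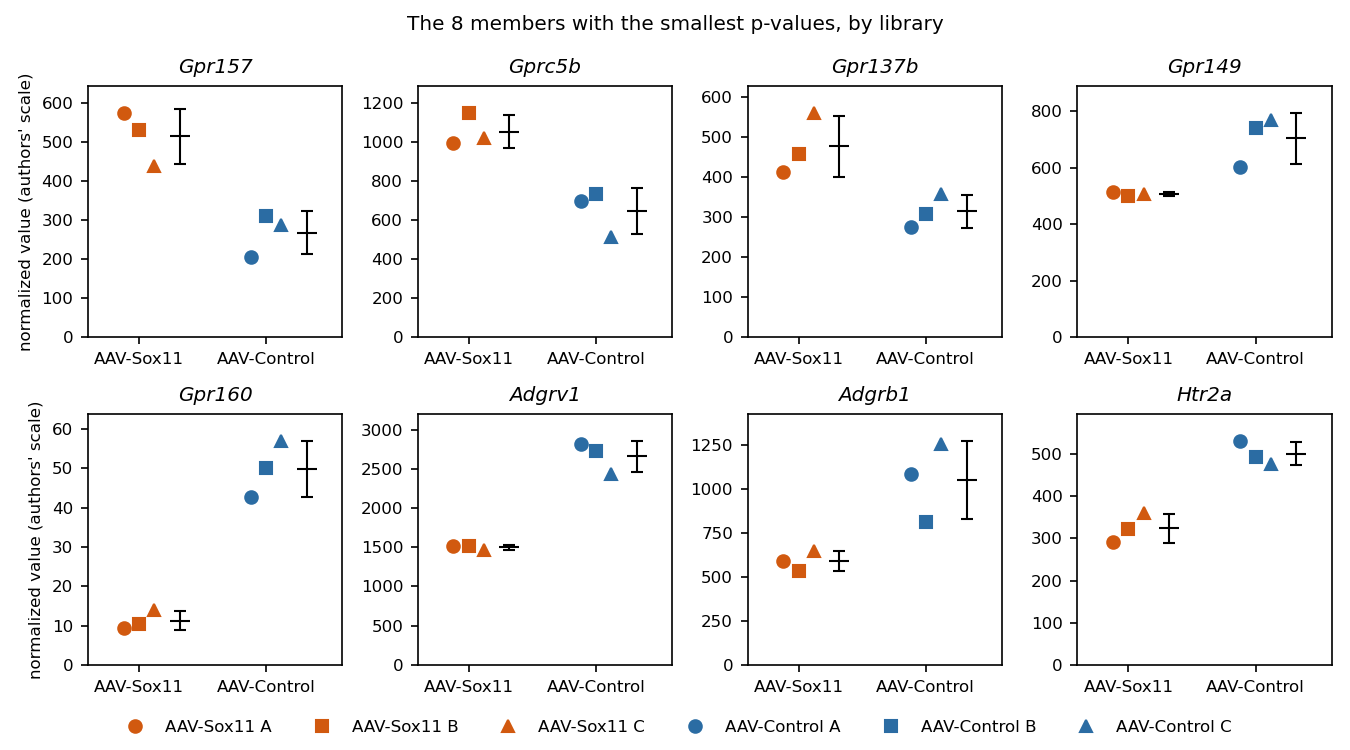
Normalized values of the 8 members with the smallest unadjusted p, by library, with AAV-Sox11 on the left of each panel and AAV-Control on the right (bars, mean ± SD, n = 3 each, every axis from 0). In each panel the groups do not overlap, and the AAV-Sox11 libraries lie closest together for Gpr149 and Adgrv1.

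Serotonin receptors numbered 4, of which Htr2a fell and 3 did not pass the test. Htr5a, coupled to Gi, had 203, 252 and 215 in the AAV-Sox11 libraries, against 141, 187 and 108 in the AAV-Control libraries. Htr1a, the Gi-coupled autoreceptor of serotonin neurons, had 43.8, 44.7 and 41.2 with AAV-Sox11 and 30.1, 38.2 and 34.7 with AAV-Control. For both, all AAV-Sox11 libraries lay above all controls, with log2 fold changes of 0.65 ± 0.21 (adjusted p = 0.123) and 0.33 ± 0.19 (adjusted p = 0.327). Htr2b, coupled to Gq like Htr2a, had 201, 179 and 196 with AAV-Sox11 and 152, 152 and 219 with AAV-Control, with overlap. Its log2 fold change was 0.16 ± 0.17 (adjusted p = 0.606), and its exons share 252 bases with Psmd1 on the other strand. Psmd1, at 1279, 1334 and 1267 with AAV-Sox11 and 1082, 1065 and 959 with AAV-Control, had larger values than Htr2b, so the Htr2b value is uncertain.

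Among 4 dopamine receptors none passed. Drd1, the Gs-coupled receptor found on horizontal and bipolar cells, had 2117, 1948 and 2117 in the AAV-Sox11 libraries, against 2633, 2257 and 2941 in the AAV-Control libraries. All AAV-Sox11 libraries lay below all controls, with a log2 fold change of -0.33 ± 0.11 (adjusted p = 0.122; 95% interval -0.58 to -0.08). Drd5, also coupled to Gs, had 18.8, 17.7 and 25.1 with AAV-Sox11 and 31.1, 17.6 and 34.7 with AAV-Control, with overlap (log2 fold change -0.38 ± 0.31, adjusted p = 0.477), and shares 1531 exon bases with the antisense gene Gm26560.

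Drd2, the Gi-coupled receptor that includes the autoreceptor of dopaminergic amacrine cells, had 274, 207 and 125 with AAV-Sox11 and 601, 107 and 95.5 with AAV-Control. AAV-Control A stood far above the other 5 libraries. The log2 fold change was 0.07 ± 0.68 (adjusted p = 0.964), and it took values between -0.40 and 0.92 when libraries were left out. Drd4, the Gi-coupled receptor of photoreceptors, had 31.3, 30.1 and 16.1 with AAV-Sox11 and 92.2, 52.0 and 23.1 with AAV-Control. It was likewise highest in AAV-Control A and lowest in AAV-Sox11 C, with overlap between the groups and a log2 fold change of -0.93 ± 0.50 (adjusted p = 0.296). Without AAV-Control A that of Drd4 was -0.47 (adjusted p = 0.562).

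Of the 6 adrenergic receptors none passed. Adra2a, the Gi-coupled presynaptic receptor at which clonidine and brimonidine act, had 30.2, 31.2 and 22.1 in the AAV-Sox11 libraries, against 16.5, 17.7 and 10.6 in the AAV-Control libraries. The AAV-Sox11 values lay above the controls without overlap, at low levels (log2 fold change 0.87 ± 0.28, adjusted p = 0.122). Adra2c, its close relative, had 46.9, 46.7 and 32.2 with AAV-Sox11 and 61.2, 61.8 and 35.7 with AAV-Control and overlapped (log2 fold change -0.30 ± 0.28, adjusted p = 0.535).

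Adrb1, coupled to Gs, had 148, 114 and 93.5 in the AAV-Sox11 libraries, against 286, 153 and 181 in the AAV-Control libraries. Its AAV-Sox11 libraries all lay below the controls (log2 fold change -0.77 ± 0.27, adjusted p = 0.14). The Gq-coupled Adra1a had 95.9, 97.6 and 79.4 with AAV-Sox11 and 192, 111 and 80.1 with AAV-Control. Adra1d, of the same kind, had 51.1, 68.5 and 66.4 with AAV-Sox11 and 84.5, 72.6 and 42.4 with AAV-Control. Both overlapped, with log2 fold changes of -0.40 ± 0.31 (adjusted p = 0.455) and -0.05 ± 0.28 (adjusted p = 0.927).

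Muscarinic receptors for acetylcholine numbered 3 and none passed. Chrm2, coupled to Gi and the most abundant of them per kilobase, had 1022, 1146 and 1044 in the AAV-Sox11 libraries, against 919, 986 and 731 in the AAV-Control libraries. The AAV-Sox11 libraries lay above the controls by a small margin (log2 fold change 0.29 ± 0.12, adjusted p = 0.202; 95% interval 0.00 to 0.58). The Gq-coupled Chrm1 had 212, 237 and 212 with AAV-Sox11 and 125, 264 and 185 with AAV-Control, and Chrm3 had 146, 175 and 156 with AAV-Sox11 and 225, 183 and 116 with AAV-Control. Both overlapped, with log2 fold changes of 0.26 ± 0.25 (adjusted p = 0.55) and -0.09 ± 0.24 (adjusted p = 0.853).

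The adenosine receptors measured were Adora2b, coupled to Gs, and Adora3, coupled to Gi and in rodents abundant in microglia. Adora2b had 43.8, 54.0 and 79.4 with AAV-Sox11 and 65.0, 58.8 and 70.4 with AAV-Control, with overlap (log2 fold change -0.17 ± 0.24, adjusted p = 0.701). Adora3 had 27.1, 22.9 and 58.3 with AAV-Sox11 and 29.1, 32.4 and 149 with AAV-Control. AAV-Control C was far above the others, followed by AAV-Sox11 C, and the log2 fold change was -0.64 ± 0.65 (adjusted p = 0.575). Without AAV-Control C it was 0.11. Adora3 shares 670 exon bases on the same strand with Tmigd3, so its value is uncertain.

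Peptide receptors were few, and none passed. Sstr3, a Gi-coupled somatostatin receptor of neuronal cilia, had 26.1, 22.8 and 15.1 with AAV-Sox11 and 43.7, 19.6 and 15.4 with AAV-Control. Npy1r, the Gi-coupled neuropeptide Y receptor, had 37.5, 42.6 and 32.2 with AAV-Sox11 and 50.5, 39.2 and 21.2 with AAV-Control. Oprm1, the mu opioid receptor, had 99.0, 86.2 and 75.4 with AAV-Sox11 and 77.7, 83.3 and 89.7 with AAV-Control. The groups overlapped for all 3, with log2 fold changes of -0.18 ± 0.41, 0.09 ± 0.33 and 0.05 ± 0.17 (adjusted p = 0.819, 0.888 and 0.882). The 95% interval was widest for Sstr3, from -1.15 to 0.78, and narrowest for Oprm1, from -0.34 to 0.44. These misses do not show that the groups were alike.

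**Figure D4:**
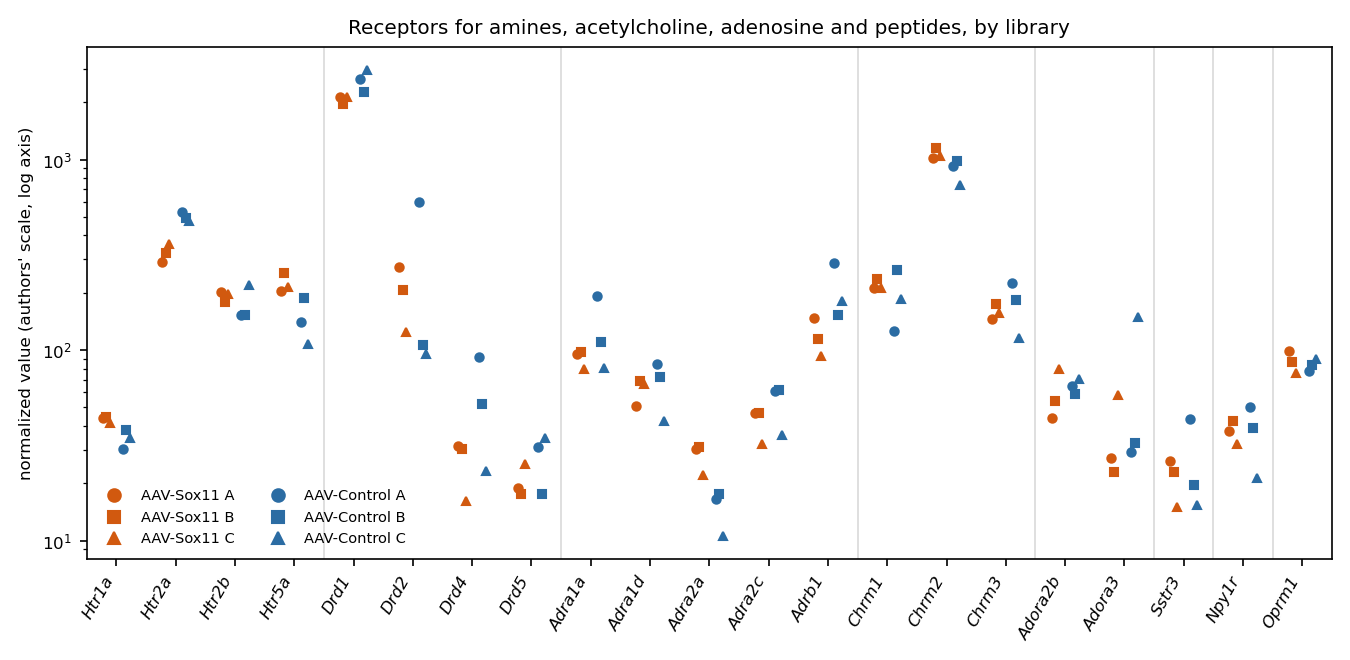
Normalized values (log axis) of 21 of the 22 receptors for serotonin, dopamine, noradrenaline and adrenaline, acetylcholine, adenosine and peptides, with AAV-Sox11 libraries on the left of each gene and AAV-Control libraries on the right. Htr2a is the only one with an adjusted p under 0.05, and Drd2 and Adora3 each have a single control library far above the others.

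Of the 16 adhesion receptors, Adgrv1 fell and 15 did not pass. The latrophilins Adgrl1, Adgrl2 and Adgrl3 bind teneurins and FLRT proteins across the synapse. Adgrl1 had 3903, 4043 and 3672 with AAV-Sox11 and 4637, 4249 and 3547 with AAV-Control, with overlap (log2 fold change -0.09 ± 0.11, adjusted p = 0.644; 95% interval -0.34 to 0.16). Adgrl2 had 1509.6, 1464 and 1446 with AAV-Sox11 and 2273, 1546 and 1636 with AAV-Control. Its AAV-Sox11 libraries lay just below the controls, of which AAV-Control A was highest (log2 fold change -0.28 ± 0.14, adjusted p = 0.274), and without it the log2 fold change of Adgrl2 was -0.11 (adjusted p = 0.397).

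Adgrl3 as a sum of 8 transcripts averaged 575 ± 73.3 with AAV-Sox11 and 639 ± 134 with AAV-Control (log2 fold change -0.14 ± 0.17, adjusted p = 0.641), but 85.8% of that value lay in transcripts not annotated as coding. The single coding transcript had 99.0, 118.4 and 95.5 with AAV-Sox11 and 72.8, 82.4 and 48.2 with AAV-Control. For it all AAV-Sox11 libraries were above the controls, with a log2 fold change of 0.64 (adjusted p = 0.149 over transcripts). The retained-intron transcript ENSMUST00000147226 ran the other way at -0.54 (adjusted p = 0.128). Adgrl3 also shares 1130 exon bases with Gm16054 on the other strand.

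Adgrb3, which binds C1q-like proteins at synapses, had 683, 611 and 569 with AAV-Sox11 and 629, 707 and 814 with AAV-Control, with overlap (log2 fold change -0.20 ± 0.12, adjusted p = 0.345), and 89.8% of its value was in transcripts other than the coding one. Adgrb2, seen only as a retained-intron transcript, averaged 33.3 ± 3.80 with AAV-Sox11 and 33.4 ± 5.22 with AAV-Control (log2 fold change 0.00 ± 0.21, adjusted p = 0.994). Adgra1, a neuronal adhesion receptor that lacks much of the usual outer region, had 1732, 2062 and 1786 with AAV-Sox11 and 1317, 1998 and 1224 with AAV-Control, with overlap (log2 fold change 0.33 ± 0.18, adjusted p = 0.31). Without AAV-Control B, Adgra1 was called higher (log2 fold change 0.55, adjusted p = 0.0443).

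The leukocyte adhesion receptors were Adgre1, the macrophage marker, Adgre4, and the Cd55 receptor Adgre5. Adgre4 had 112, 77.9 and 73.4 with AAV-Sox11 and 44.7, 40.2 and 73.3 with AAV-Control (log2 fold change 0.75 ± 0.28, adjusted p = 0.159). Its groups did not overlap, but the lowest AAV-Sox11 library was almost level with the highest control. Adgre5 had 14.6, 31.2 and 47.3 with AAV-Sox11 and 9.70, 28.4 and 15.4 with AAV-Control, with overlap (log2 fold change 0.74 ± 0.51, adjusted p = 0.401). Its exons share 709 bases with Ddx39 on the other strand. Ddx39, at 83.4, 95.5 and 109.6 with AAV-Sox11 and 77.7, 130.4 and 122.5 with AAV-Control, had larger values, so the Adgre5 value is uncertain. Adgre1 averaged 112 ± 66.9 with AAV-Sox11 and 120.3 ± 58.4 with AAV-Control and was highest in both C libraries (log2 fold change -0.16 ± 0.46, adjusted p = 0.853).

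Adgrg6, which drives myelination by Schwann cells, had 57.3, 67.5 and 90.5 with AAV-Sox11 and 202, 59.8 and 75.2 with AAV-Control. AAV-Control A was far above the rest (log2 fold change -0.46 ± 0.44, adjusted p = 0.554), and without it the log2 fold change was 0.07. Adgra3, Adgrd1, Adgrf2 and Adgrf5, the last known from lung and endothelium, had log2 fold changes between -0.27 and 0.08, adjusted p from 0.574 to 0.928, and groups that overlapped.

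Of the 45 orphan and other Gpr or Gprc5 proteins, Gpr157 rose, Gpr160 fell and 43 did not pass. In 4 of the 45 the AAV-Sox11 libraries all lay above the controls and in 7 all below, where 16.2% and 14.4% of all genes did so. Gpr158, reported as a glycine receptor of the brain and a tether for Rgs7, was the highest member by value and had 4313, 4916 and 5080.0 in the AAV-Sox11 libraries, against 3811, 4688 and 4008 in the AAV-Control libraries, with overlap (log2 fold change 0.20 ± 0.10, adjusted p = 0.295; 95% interval -0.05 to 0.44). Gpr179, its relative in ON bipolar cells, whose loss causes night blindness, averaged 900.3 ± 165 with AAV-Sox11 and 1382 ± 786 with AAV-Control. AAV-Control A alone reached 2289, and the other 5 libraries lay between 728 and 1057 (log2 fold change -0.49 ± 0.35, adjusted p = 0.412). Without AAV-Control A the log2 fold change of Gpr179 was -0.06 (adjusted p = 0.853).

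Gpr149 had 513, 499.5 and 507 in the AAV-Sox11 libraries, against 602, 741 and 770.0 in the AAV-Control libraries. All AAV-Sox11 libraries lay below all controls, and were close to each other (log2 fold change -0.47 ± 0.11, adjusted p = 0.068 without and 0.0649 with the block). Without AAV-Control A, Gpr149 was called lower (adjusted p = 0.0475). Gpr162 had 574, 585 and 581 with AAV-Sox11 and 762, 687 and 664 with AAV-Control. Gpr61 had 75.1, 86.2 and 92.5 with AAV-Sox11 and 104, 136 and 117 with AAV-Control. Gpr62 had 63.6, 66.5 and 65.4 with AAV-Sox11 and 122, 88.3 and 79.1 with AAV-Control. In each of the 3 the AAV-Sox11 libraries were lower without overlap. The log2 fold changes were -0.28 ± 0.09, -0.48 ± 0.17 and -0.54 ± 0.20, with adjusted p of 0.119, 0.14 and 0.155.

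Several orphans raise cyclic AMP without a ligand. Gpr26, a neuronal receptor of that kind, had 1389.7, 2188 and 2176 with AAV-Sox11 and 1439.8, 1589.6 and 761 with AAV-Control, with AAV-Control C the lowest and overlap between the groups (log2 fold change 0.64 ± 0.30, adjusted p = 0.237). Without that library it was 0.31 (adjusted p = 0.378). Gpr26 lies within the annotated span of Fgfr2. Gpr3 and Gpr12, which in rodent neurons promote neurite growth through cyclic AMP, were both measured. Gpr3 averaged 19.2 ± 0.966 with AAV-Sox11 and 26.6 ± 5.59 with AAV-Control. Gpr12 averaged 239 ± 30.4 with AAV-Sox11 and 304 ± 57.6 with AAV-Control. Gpr3 was lower in every AAV-Sox11 library than in any control, and Gpr12 overlapped (log2 fold change -0.43 ± 0.23, adjusted p = 0.299, and -0.33 ± 0.17, adjusted p = 0.285).

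The receptors of immune cells and of lipids or protons were Gpr84, Gpr183, Gpr65, Gpr4, Gpr18, Gpr171 and Gpr82. Gpr84, a microglial receptor for medium-chain fatty acids, had 512, 313 and 417 with AAV-Sox11 and 611, 452 and 1559 with AAV-Control. AAV-Control C stood far above the other 5 libraries (log2 fold change -0.90 ± 0.43, adjusted p = 0.25). Without that library the log2 fold change of Gpr84 was -0.37 (adjusted p = 0.349), and with the sex measure as a covariate it was 0.13 (adjusted p = 0.893). Gpr65, a proton sensor of leukocytes, had 66.7, 81.0 and 148 with AAV-Sox11 and 185, 109 and 182 with AAV-Control, with overlap (log2 fold change -0.73 ± 0.34, adjusted p = 0.233). Gpr4, a proton sensor of endothelium, had a log2 fold change of 0.64 ± 0.38 (adjusted p = 0.344), and Gpr183, the oxysterol receptor, -0.12 ± 0.13 (adjusted p = 0.59).

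Gpr171, reported as a receptor for the peptide BigLEN in the mouse, had 858, 906 and 565 with AAV-Sox11 and 376, 734 and 353 with AAV-Control, with overlap (log2 fold change 0.72 ± 0.30, adjusted p = 0.197). Without AAV-Control B, Gpr171 was called higher (log2 fold change 1.06, adjusted p = 0.0478). It lies inside Med12l, transcribed the other way, whose values were 192.9, 206.7 and 200.1 with AAV-Sox11 and 249.5, 284.4 and 235.4 with AAV-Control. Gpr18 had a log2 fold change of 0.38 ± 0.17 (adjusted p = 0.229) and Gpr82 0.18 ± 0.24 (adjusted p = 0.676). Gpr18 and Gpr183 lie likewise inside Ubac2, Gpr22 in Cog5 and Gpr82 in Cask. Without the strand setting, reads of such pairs cannot be assigned with certainty.

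Gpr85 and Gpr173 are conserved brain receptors of the same family. Gpr85 averaged 243 ± 6.54 with AAV-Sox11 and 249 ± 13.0 with AAV-Control, with overlap (log2 fold change -0.03 ± 0.10, adjusted p = 0.865; 95% interval -0.28 to 0.21). Gpr173 averaged 371 ± 39.9 with AAV-Sox11 and 257 ± 70.2 with AAV-Control, and each of its AAV-Sox11 libraries lay above each control (log2 fold change 0.56 ± 0.21, adjusted p = 0.159). Gpr37, a glial receptor and a substrate of Parkin, had 1048, 1098 and 1003 with AAV-Sox11 and 1959, 669.7 and 593 with AAV-Control, with AAV-Control A the highest of all (log2 fold change 0.19 ± 0.41, adjusted p = 0.807). Without AAV-Control A the log2 fold change of Gpr37 was 0.73, and it was then called higher (adjusted p = 0.0475). Without AAV-Control C it was -0.13 (adjusted p = 0.867).

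Proteins with Gpr names that sit mainly on inner membranes followed, and none passed. Gpr107 had 1929.7, 1967 and 1844 with AAV-Sox11 and 1886, 1771 and 1606 with AAV-Control, with a log2 fold change of 0.13 ± 0.09 (adjusted p = 0.386). Gpr108, a Golgi protein that many AAV serotypes need for entry, averaged 919 ± 63.8 with AAV-Sox11 and 847 ± 133 with AAV-Control (log2 fold change 0.13 ± 0.13, adjusted p = 0.577). Gpr89, which helps to acidify the Golgi, had 0.09 ± 0.11 (adjusted p = 0.664), Gpr155, a lysosomal cholesterol sensor, 0.14 ± 0.19 (adjusted p = 0.676), and Gpr137c 0.03 ± 0.09 (adjusted p = 0.852). The groups overlapped for all 5.

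Of the orphans not yet named, Gpr19, Gpr21, Gpr22, Gpr45, Gpr63, Gpr75, Gpr135, Gpr151, Gpr152, Gpr165, Gpr176, Gpr180 and Gpr182 had log2 fold changes between -0.43 and 0.48. None had an adjusted p below 0.333. Gprc5c, the relative of Gprc5b, averaged 19.2 ± 2.19 with AAV-Sox11 and 30.8 ± 6.64 with AAV-Control, and its AAV-Sox11 libraries all lay below the controls (log2 fold change -0.64 ± 0.25, adjusted p = 0.174).

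The kinases caught by the name rule phosphorylate active receptors so that arrestin can bind. Adrbk2 had 2556, 2774 and 2969 with AAV-Sox11 and 3228, 3299.7 and 3161 with AAV-Control, all AAV-Sox11 libraries being below the controls (log2 fold change -0.23 ± 0.08, adjusted p = 0.143). Adrbk1 had 29.2, 35.3 and 25.1 with AAV-Sox11 and 7.76, 18.6 and 8.68 with AAV-Control, all being above (log2 fold change 1.37 ± 0.35, adjusted p = 0.0787), but its only transcript in the table is a retained-intron form, so the value does not stand for the coding mRNA. Without AAV-Control B, Adrbk1 was called higher (log2 fold change 1.73, adjusted p = 0.0311).

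Over the 81 members not called, the median distance from the estimate to the end of the 95% interval was 0.50 on the log2 scale. For 18 of the 81 the whole interval lay within 0.5 of 0. For the remainder a change of that size in either or both directions is not excluded by these 6 libraries.

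The authors' deposited table gives its own comparison by transcript. There, in the authors' deposited table, 3 of the 129 member transcripts were higher and 13 lower at an FDR under 0.05, where 1.93% and 4.91% of all 26691 transcripts were. These transcripts belonged to 9 member genes. Adgrv1 supplied 8 of the lower ones, and Gpr157, Gprc5b and Adrbk1 the higher ones in the authors' deposited table. The authors' deposited table also lists Gpr84 as lower (log2 fold change -1.08, FDR 0.0427). Adgrb1 (-0.83, FDR 0.00119) and the Adgrb3 transcript ENSMUST00000154102 (-1.35, FDR 0.0243) were lower there too. None of these genes passed here in the fit without the block, and neither did Gprc5b or Adrbk1. The authors' deposited table and the present fit rest on the same 6 libraries, so they are not independent.

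Signalling partners were followed from a list of 141 genes for ligands, G proteins, kinases, arrestins, RGS proteins and second-messenger enzymes, of which 104 were measured. In limma 3 rose and 2 fell, where 0.796% of all genes were called higher and 1.52% lower, and the median log2 fold change was 0.04. With the block on replicate letter 8 were higher and 4 lower, where 2.09% and 2.68% of all genes were called. By role, 1 of 9 ligand genes rose, 1 of 25 G protein subunits rose, 1 of 13 adhesion ligands rose, 1 of 15 RGS genes fell and 1 of 22 cyclic AMP genes fell. None of 8 kinases and arrestins and none of 12 genes of the phospholipase C arm passed. An unadjusted p under 0.05 was seen in 5 of the 8 and 4 of the 12, against 24.3% of all genes. Adrbk1 and Adrbk2, both among those 5, are also counted among the members, so the lists are not separate there.

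Penk, the precursor of enkephalins, which act on opioid receptors, had 68.8, 70.6 and 73.4 in the AAV-Sox11 libraries, against 30.1, 30.4 and 33.8 in the AAV-Control libraries. All AAV-Sox11 libraries were above all controls (log2 fold change 1.15 ± 0.17, adjusted p = 0.0241). C1ql3, a ligand of Adgrb3, had 112, 137 and 161 in the AAV-Sox11 libraries, against 70.9, 70.6 and 68.5 in the AAV-Control libraries, likewise without overlap (log2 fold change 0.94 ± 0.17, adjusted p = 0.0443). Gnai3, a Gi alpha subunit, had 2407, 2278 and 2030.2 with AAV-Sox11 and 1508, 1689 and 1645 with AAV-Control (log2 fold change 0.47 ± 0.09, adjusted p = 0.049, and 0.0518 with the block).

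Pde7b, a phosphodiesterase specific for cyclic AMP, had 509, 490.2 and 496 in the AAV-Sox11 libraries, against 827, 855 and 796 in the AAV-Control libraries. The AAV-Sox11 libraries all lay below the controls (log2 fold change -0.73 ± 0.08, adjusted p = 0.0153). The size and the call depended on the transcripts summed. With the highest transcript alone the log2 fold change of Pde7b was -1.10 (adjusted p = 0.0581), and with coding transcripts alone it was -0.31 (adjusted p = 0.39). Rgs6, a regulator of Gi signalling, had 99.0, 102 and 119 with AAV-Sox11 and 174, 169 and 193 with AAV-Control, also without overlap (log2 fold change -0.74 ± 0.14, adjusted p = 0.0447). Over the alternative settings Penk was called in 11 of 21, Pde7b in 10 of 21, Rgs6 in 8 of 21, C1ql3 in 8 of 21 and Gnai3 in 4 of 21, and none of these was called when any 1 AAV-Sox11 library was left out.

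Several members moved with single libraries in which markers of other cells were also high. Bipolar cell markers (6 of 7 measured) summed to 6197 to 7170.4 in the AAV-Sox11 libraries and 7382 to 10358 in the AAV-Control libraries. Prkca, at 5237 to 5807 with AAV-Sox11 and 5392 to 6413 with AAV-Control, made up most of that sum. In the mean log2 deviation over the bipolar markers the groups overlapped, with -0.06 in AAV-Sox11 A and -0.34 in AAV-Control B. Cone markers (5 of 5) summed to 538 to 792 in the AAV-Sox11 libraries and 676 to 2567 in the AAV-Control libraries. Muller glia markers (5 of 6) summed to 11132 to 13624 in the AAV-Sox11 libraries and 8362 to 22536 in the AAV-Control libraries. In each of these lists AAV-Control A was the highest library, as it was for Gpr179, Drd2, Drd4, Gpr37 and Adgrg6. The same library was highest for endothelial and pericyte markers (2 of 6 measured), at 18932 against 4320 to 8027 in the others. Gfap, the only astrocyte marker measured, had 418.5 there against 32.3 to 177 in the others. AAV-Control A was also the highest library for 25 of the 85 members, 29.4%, and for 20.6% of all genes.

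Microglia and macrophage markers (6 of 8 measured) summed to 2114 to 2963 in the AAV-Sox11 libraries and 2365 to 5798 in the AAV-Control libraries. AAV-Control C was the highest there, as it was for Gpr84 and Adora3. Rod markers (6 of 6) summed to 22448 to 41309 in the AAV-Sox11 libraries and 36121 to 57384 in the AAV-Control libraries and were lowest in AAV-Sox11 C. Ganglion cell markers (9 of 10) summed to 7869 to 10429 in the AAV-Sox11 libraries and 6649.9 to 10108 in the AAV-Control libraries. That sum joined markers of unlike direction, and none of them passed. Slc17a6 (log2 fold change 0.99, adjusted p = 0.0802 in limma) and Pou4f2 (1.47, adjusted p = 0.0669) were higher in every AAV-Sox11 library than in any control. Nefl, Nefm and Isl1 had -0.33, -0.39 and -0.04, and the other markers of the list were positive, with a median of 0.37 over the list. Amacrine markers (6 of 8) summed to 10708 to 13112 in the AAV-Sox11 libraries and 9385 to 13181 in the AAV-Control libraries. Gad2 made up most of that sum, and the median log2 fold change over the list was 0.17. Slc6a9, of the same list, had 208.5, 185.9 and 190.0 with AAV-Sox11 and 462.1, 285.3 and 391.7 with AAV-Control. Its log2 fold change was -0.93 (adjusted p = 0.0481 in limma), and no other marker of any list passed. No measured marker in these lists stood at 0 in any library. Of the called members, Adgrv1 and Htr2a were also highest, and Gpr157 lowest, in AAV-Control A. Without that library the log2 fold changes were -0.78 for Adgrv1 (adjusted p = 0.0417), -2.16 for Gpr160 (adjusted p = 0.0433), -0.59 for Htr2a (adjusted p = 0.0784) and 0.77 for Gpr157 (adjusted p = 0.0663). T cells of mice also carry Thy1, and of 4 T cell markers only Cd4 was measured, with 235.6, 132.9 and 141.8 with AAV-Sox11 and 43.7, 47.1 and 146.7 with AAV-Control. The part of cell mixture in any member's result was not tested.

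**Figure D5:**
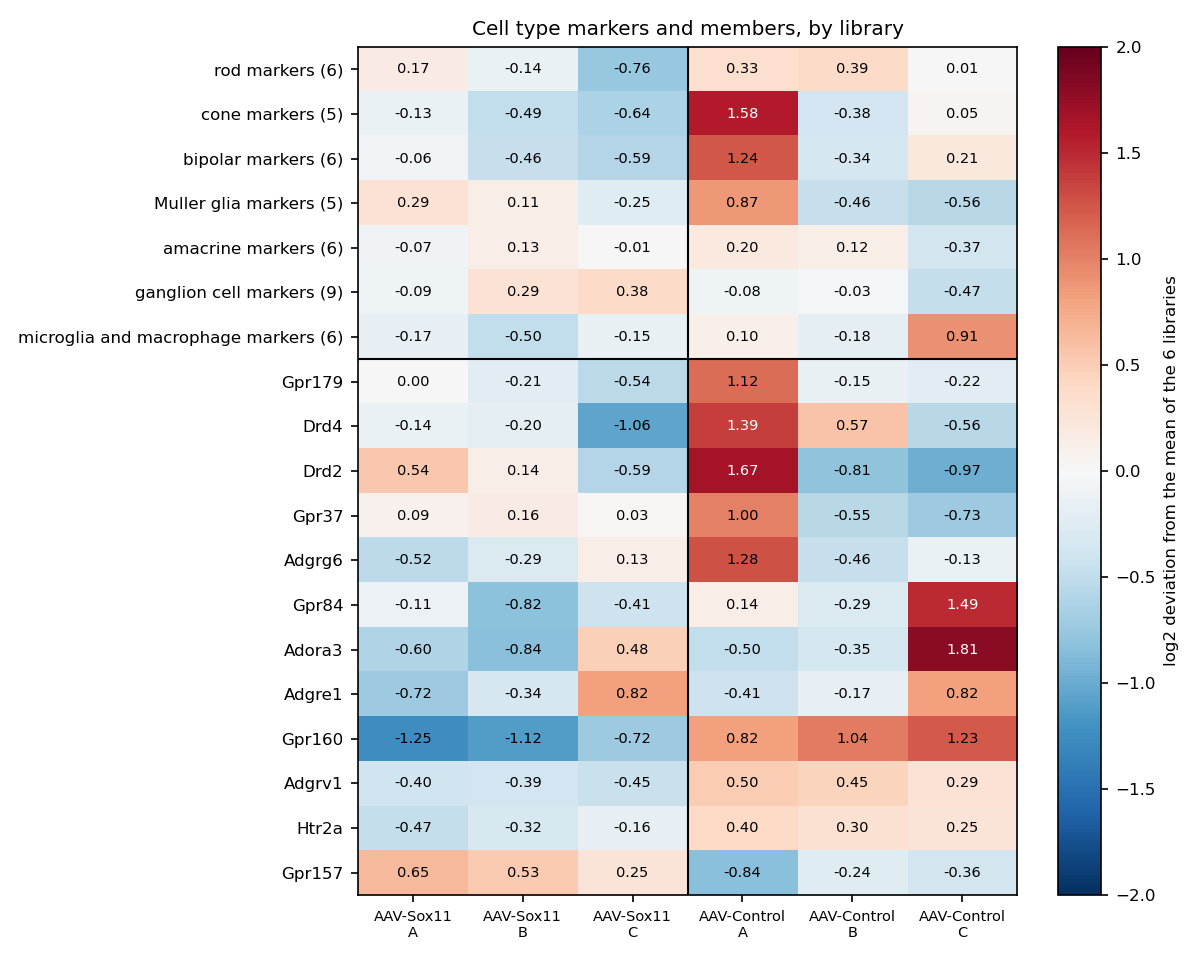
Deviation of each library from the mean of the 6 libraries on the log2 scale, for 7 lists of cell type markers (mean over the measured genes, whose number stands in brackets) and for 12 members chosen after their values were seen, with AAV-Sox11 libraries on the left and AAV-Control libraries on the right. AAV-Control A is high for cone, bipolar and Muller glia markers and for Gpr179, Drd2 and Gpr37, AAV-Control C is high for microglia markers, Gpr84 and Adora3, and the last 4 members divide by group.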

How the data were processed

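Polyadenylated RNA of sorted Thy1-positive retinal cells was sequenced in 6 libraries, 3 per group. CASAVA 1.8.2, edgeR and the build mm10 appear in the submitters' processing notes. Aligner, counter, strand setting and annotation were not given in the sources used here. In all, the authors deposited a single table of 26691 transcripts with normalized values, a signal that equals the deposited whole-number columns times 1 factor per library (0.9649 to 1.043), and with their own log2 fold changes and p-values. The whole-number columns the authors deposited are treated as a score, not as counts. Along 1 of the 5 directions in which 6 libraries can differ, their log values had an SD of 9.48e-05 natural log units, against 0.0924 along the next direction. A component had thus been taken out before deposit, by means that neither headers nor labels record. That direction's squared weight lay to 57.7% in AAV-Sox11 B, and its cosine with the group contrast was -0.019. The values therefore lack part of the spread between libraries, and p-values may be too small for that reason.

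Transcript values sharing a gene name were summed to 15450 genes, and limma-trend (limma 3.58.1, R 4.3.3) was fitted to log2(sum + 1) with no covariate. The lowest gene mean was 7.2, so no filter removed a gene. Fold changes on this scale understate those of low genes. A p-value rests on the spread between pools of 3 retinas. The 357 transcripts without a gene name held 0.422% to 0.517% of each library and were left out. Transcript types, exons and overlaps come from GENCODE M21 and promoters from RefSeq. In all, 27 members shared exon bases with another annotated gene, and not every case is marked above. Cases not marked include Adgrl1 (1107 bases with Gm10644), Gpr158 (601 with Gm13327) and Gpr84 (681 with Gm49482). Gpr65 (511 with Gm47566) and Gpr89 (1333 with Pdzk1) are others, all on the other strand. Without the strand setting these values are uncertain to that extent. The fit was tested on simulated data.

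Both groups of a replicate were prepared on 1 day, per the series description, so the letters pair the samples. Deviations from the group means correlated at 0.00 for A, 0.79 for B and 0.24 for C. The members, the lists and the tests were chosen with earlier results of these data known. 1 gene that matches the name pattern is not reported here, and 3 members enter the counts and medians only. Named individually were all other neuromodulator receptors, all called members, the 8 orphan and 8 adhesion receptors with the smallest unadjusted p, the 3 of each kind with the highest values, and called partner genes. Others are listed to complete a role and were placed there after their values had been seen. Alternatives were another pseudocount (5), a minimum mean of 20, other scalings, robust variance, the block, covariates for the removed direction and for sex, single or coding transcripts, and leaving out libraries. The settings with coding transcripts alone were added after seeing the data.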

Additional observations from a re-analysis of the deposited data

How the results depend on the processing

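Most directions held while the calls did not. Over the 87 genes described and 21 alternative settings, 1613 of 1823 values kept direction and side of the threshold. A further 105 lost the call, 18 gained one and 87 changed sign, and 53 genes never changed sign. Only the members and partner genes called in the analysis reported could lose a call. Most values of the other genes kept their side by staying uncalled, so the 105 lost calls are not to be read as a share of 1823. The count of members higher, 1 in the analysis reported, was 0 with upper-quartile scaling, 2 with robust variance, 0 with coding transcripts alone, and 0 to 5 when libraries were left out, the 5 (Gpr157, Gprc5b, Adgra1, Gpr171 and Adrbk1) without AAV-Control B. The 1 without AAV-Control A was Gpr37, not Gpr157. The count of members lower, 3, was 0 to 4 when libraries were left out. With the removed direction as covariate, and with the sex measure as covariate, both counts were 0, as were those of partner genes and of all genes. In limma 16 members and 2582 genes then had an unadjusted p under 0.05 with the direction, and 16 and 2702 with the sex measure. Leaving out any 1 AAV-Sox11 library gave 0 members in either direction, with 11 to 18 at an unadjusted p under 0.05, and 0 of all genes, with 1942 to 3120.

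With the replicate block, which follows the pairing by day, 3 members were higher and 4 lower, partner genes 8 and 4, and all genes 323 and 414. With the block and the removed direction together, 0 members were higher and 2 lower (Adgrv1 and Adgrb1), 2 partner genes higher and 0 lower, and all genes 63 higher and 69 lower. Partner genes higher ranged from 0 to 9 and lower from 0 to 2 when libraries were left out, and lower partner genes were 0 with the highest transcript of each gene or with coding transcripts alone. Over all genes the calls, 123 higher and 235 lower, were 100 and 355 with upper-quartile scaling, 103 and 356 with library size alone, and 117 lower with coding transcripts alone, while libraries left out gave 0 to 339 higher and 0 to 406 lower. The median fold change of the members ranged from -0.11 to 0.02 when libraries were left out.

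Signs changed in 34 of the 87 genes, none of them called in the analysis reported. With the sex measure the log2 fold changes became -0.13 for Adgra3, 0.06 for Adgrb3, 0.22 for Adora3, -0.25 for Drd2, -0.14 for Gpr108 and for Gpr137c, -0.09 for Gpr155, -0.29 for Gpr176, 0.21 for Gpr21, -0.05 for Gpr22 and for Gpr4, -0.19 for Gpr26, -0.31 for Gpr37, 0.13 for Gpr84 and -0.41 for Npy1r. With library size alone they were -0.06 for Adgrb2, -0.03 for Gpr137c and -0.01 for Gpr45 and for Oprm1, with upper-quartile scaling -0.04 for Adgrb2 and -0.01 for Gpr137c, with median-of-ratios scaling -0.02 for Adgrb2, and with coding transcripts alone 0.64 for Adgrl3. When libraries were left out, Adgra3 ranged from -0.04 to 0.22, Adgrb2 from -0.10 to 0.12, Adgrd1 from -0.53 to 0.15, Adgre1 from -0.62 to 0.20, Adgrf5 from -0.38 to 0.36, Adgrl3 from -0.25 to 0.03, Gpr108 from 0.00 to 0.23, Gpr135 from -0.11 to 0.38, Gpr137c from -0.06 to 0.12, Gpr151 from -0.51 to 0.02, Gpr152 from -0.41 to 0.31, Gpr155 from -0.01 to 0.30, Gpr182 from -0.36 to 0.05, Gpr21 from -0.22 to 0.10, Gpr37 from -0.13 to 0.73, Gpr45 from -0.09 to 0.17, Gpr82 from -0.19 to 0.46 and Gpr85 from -0.08 to 0.00. Adgrg6 ranged from -0.81 to 0.22, Adora2b from -0.40 to 0.02, Adora3 from -1.05 to 0.11, Adra1d from -0.40 to 0.28, Chrm1 from -0.01 to 0.53, Chrm3 from -0.36 to 0.18, Drd2 from -0.40 to 0.92, Npy1r from -0.25 to 0.35, Oprm1 from -0.10 to 0.20 and Sstr3 from -0.48 to 0.25. The cause of these changes was not tested.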
